A study of Mus musculus with 9 samples.

Results

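The 10 genes described here encode the NF-κB transcription factors and the proteins that hold them in check. They were chosen by gene name, as the 5 NF-κB subunits Nfkb1, Nfkb2, Rel, Rela and Relb, the classical inhibitors Nfkbia and Nfkbie, the nuclear IκB proteins Nfkbiz and Bcl3, and the feedback enzyme Tnfaip3. Of these, 9 had 1 named probe set each among the 22180 genes compared, and no probe set was annotated with Nfkb1, which is named here without values. Expression was measured on GeneChip arrays in Th17 cultures of sorted naive CD4+CD25- T cells with low CD44 and high CD62L, taken from mouse spleens. For 60 h they received anti-CD3 and anti-CD28, each at 10 µg/ml, with TGF-β1 at 1 ng/ml, IL-6, and 2 µg/ml of each of the antibodies that block IL-4 and IFN-γ. The cells were wild-type (WT), SRG3-deficient (SRG3 cKO, a conditional knockout of a core Swi/Snf chromatin remodelling subunit) or RORγt-deficient (RORγt KO, without the transcription factor that directs Th17 differentiation), with 3 arrays per genotype. The Cre line and alleles, and the age and number of the mice, are not given in the sources used here. The arrays of a genotype are called biological replicates without stating whether mice or cultures were separate, and p-values therefore cover only the spread among arrays, which may be technical.

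NF-κB proteins bind DNA as dimers of Rel-domain subunits, and in resting T cells the classical IκB proteins keep them in the cytoplasm. Signals from the T cell receptor, CD28 and receptors of the TNF and IL-1 families activate the IκB kinase, which marks IκB for degradation and frees the dimers. NF-κB then induces genes of T cell activation and also its own brakes, among them Nfkbia, Nfkbie and Tnfaip3, which encodes the ubiquitin-editing enzyme A20. The nuclear IκB proteins bind NF-κB on chromatin, and the product of Nfkbiz, IκBζ, is known as a cofactor of RORγt at Il17a.

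The promoters of 3 members are shown because Tnfaip3 and Nfkbie had the largest differences of the family in SRG3 cKO cells and Bcl3 in RORγt KO cells. Each is the 250 bases before a RefSeq transcription start (build GRCm38.p6), written 5′ to 3′ on the gene's strand, with matches to the κB consensus in capitals on either strand. Tnfaip3 is at chr10:19015411-19015660 (minus strand), Nfkbie at chr17:45555450-45555699 (plus strand) and Bcl3 at chr7:19822756-19823005 (minus strand).
Tnfaip3: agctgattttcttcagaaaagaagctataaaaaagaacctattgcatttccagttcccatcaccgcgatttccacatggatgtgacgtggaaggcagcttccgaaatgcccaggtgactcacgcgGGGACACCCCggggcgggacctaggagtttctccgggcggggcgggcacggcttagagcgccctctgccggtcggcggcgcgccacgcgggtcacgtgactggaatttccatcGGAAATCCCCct
Nfkbie: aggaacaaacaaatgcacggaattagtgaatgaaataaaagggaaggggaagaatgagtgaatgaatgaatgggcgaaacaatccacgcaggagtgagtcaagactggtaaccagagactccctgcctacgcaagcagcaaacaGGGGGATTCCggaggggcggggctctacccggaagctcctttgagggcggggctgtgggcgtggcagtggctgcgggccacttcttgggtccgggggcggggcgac
Bcl3: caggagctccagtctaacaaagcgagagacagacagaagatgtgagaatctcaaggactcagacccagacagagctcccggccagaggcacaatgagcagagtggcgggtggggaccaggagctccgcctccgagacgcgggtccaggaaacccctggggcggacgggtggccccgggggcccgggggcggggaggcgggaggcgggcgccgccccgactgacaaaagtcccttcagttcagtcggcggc
The Tnfaip3 promoter held matches at -125 to -116 and at -12 to -3, counted from -1 as the last base before the start, the first read as a match on both strands and the second on the reverse strand. The Nfkbie promoter held 1, at -106 to -97, and the Bcl3 promoter held none in this window. Among the other members Nfkbia held a match at -29 to -20, Rel overlapping matches from -92 to -82, Nfkb2 at least 1 at each of its start sites, and Rela none. A second Tnfaip3 start site held none. In all, 7 of 10 start sites of the 7 members with an entry held a match, against 7.25% of all 32851 promoters of that length. The half-site AGGTCA, which ROR proteins bind, was in 14% of all promoters and in none of these 10. A match describes letters in the sequence and not binding.

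The labels were checked first. Smarcc1, which encodes SRG3, lay at 8.47, 8.79 and 8.62 on the log2 scale in SRG3 cKO arrays against 10.13, 10.32 and 10.39 in WT and 10.12, 10.04 and 10.19 in RORγt KO arrays, and the RORγt KO label was not checked in this way. All 10 measured T cell identity genes lay above the median of all values (7.13) in each group. So did 7 of 8 genes of B cells and MHC class II, 2 to 4 of 11 myeloid genes and 2 of 6 genes of CD8 T cells and NK cells. The γδ T cell genes chosen had no values. On the first principal component of all genes (28.8% of the variance) WT array 1, SRG3 cKO array 1 and RORγt KO array 3 lay farthest from the others of their groups. Values without these 3 arrays, which leave 2 per group, are given beside the members with the largest differences. On that component WT array 1 and RORγt KO array 3 were the arrays of their groups nearest to the other group. Leaving them out therefore sets WT and RORγt KO further apart. Likewise SRG3 cKO array 1 and RORγt KO array 3 were each nearest to the other's group, so leaving them out sets these groups further apart too.

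The first question was how loss of a chromatin remodelling subunit changes the family. In SRG3 cKO cells the feedback gene Tnfaip3 was 1.34-fold, the inhibitor gene Nfkbie 1.30-fold and the subunit gene Rela 1.14-fold above WT, and the other 6 members differed by at most 0.08 on the log2 scale. None of the 9 passed the threshold of an adjusted p of 0.05 in the fit without pairing (0 called, limma, against 0.523% of all genes), while 3 had an unadjusted p under 0.05, as did 11.2% of all genes. Arrays of the same number in these 2 groups deviated together. When the replicate number was added as a block (9 arrays), Tnfaip3 and Nfkbie rose, 2 of 9 members, against 0.879% of all genes called and 0.564% called higher in that fit. That fit includes the RORγt KO arrays, of which array 2 did not deviate together with array 2 of the other groups, while arrays 1 and 3 did with theirs. With the block in the 6 SRG3 cKO and WT arrays alone, 0 of 9 members passed (limma).

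Tnfaip3 lay at 9.56, 9.43 and 9.39 in the WT arrays and at 10.08, 9.82 and 9.73 in the SRG3 cKO arrays. All SRG3 cKO arrays were above all WT arrays, and array 1 was the highest of both groups. The log2 change was 0.42 (SE 0.08, 95% interval 0.23 to 0.61, limma adjusted p = 0.0781), or adjusted p = 0.0208 with the block and 0.0808 with the block in the 6 arrays of these groups alone. Of all genes 0.329% had a larger rise. Without any 1 array the change was 0.32 to 0.49 and the unpaired test was not passed. Without the 3 arrays that stand apart, which leaves 2 per group, it was 0.37 (limma adjusted p = 0.151).

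Nfkbie encodes IκBε, an inhibitor that holds mainly dimers of Rel and Rela. Its level was 8.67, 8.45 and 8.45 in WT arrays and 9.02, 8.82 and 8.87 in SRG3 cKO arrays, again with no overlap and with array 1 highest in each group. The change was 0.38 (SE 0.07, 95% interval 0.22 to 0.53, limma adjusted p = 0.0558), with 0.0248 under the block and 0.0655 with the block in the 6 arrays. Without WT array 1 it passed (0.45, limma adjusted p = 0.0279), and without any other array it did not. The fit that passed leaves out the highest WT array for Nfkbie and is therefore not independent support. Without the 3 arrays that stand apart the change was 0.39 (limma adjusted p = 0.0933).

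Rela encodes p65, the subunit with a strong activation domain. It lay at 10.41, 10.43 and 10.43 in WT and at 10.65, 10.65 and 10.54 in SRG3 cKO arrays, which do not overlap. The difference was 0.19 (SE 0.04, 95% interval 0.09 to 0.29) and did not pass with or without the block (limma adjusted p = 0.0881 and 0.125), and it was 0.16 without the 3 arrays that stand apart. These 3 members, of 9, had groups that do not overlap with SRG3 cKO higher, against 7.04% of all genes, and none had SRG3 cKO lower (6.56%).

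For the remaining members the interval of the change included 0. For Rel, the subunit c-Rel needed for many T cell activation genes, the log2 change was 0.01 with an interval of -0.09 to 0.11, and for Nfkb2, the precursor of p52, it was 0.01 (-0.09 to 0.12). Relb, the partner of p52 in the non-canonical pathway, was at -0.05 (-0.15 to 0.05). The inhibitor gene Nfkbia was at 0.08 (-0.03 to 0.19), Nfkbiz at 0.05 (-0.10 to 0.19) and Bcl3, which joins p50 and p52 dimers on DNA, at 0.01 (-0.12 to 0.15). Over the 9 members the median log2 change was 0.05, against -0.01 for all genes. Medians as high were seen in lists described below, at 0.06 for other IκB proteins and A20 partners. The IκB kinase list was at 0.07 and the CD28 route at 0.06. The receptor and NF-κB target lists were at -0.02 each and the IκBζ list at -0.14, while T cell identity genes were at 0.15.

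**Figure D1:**
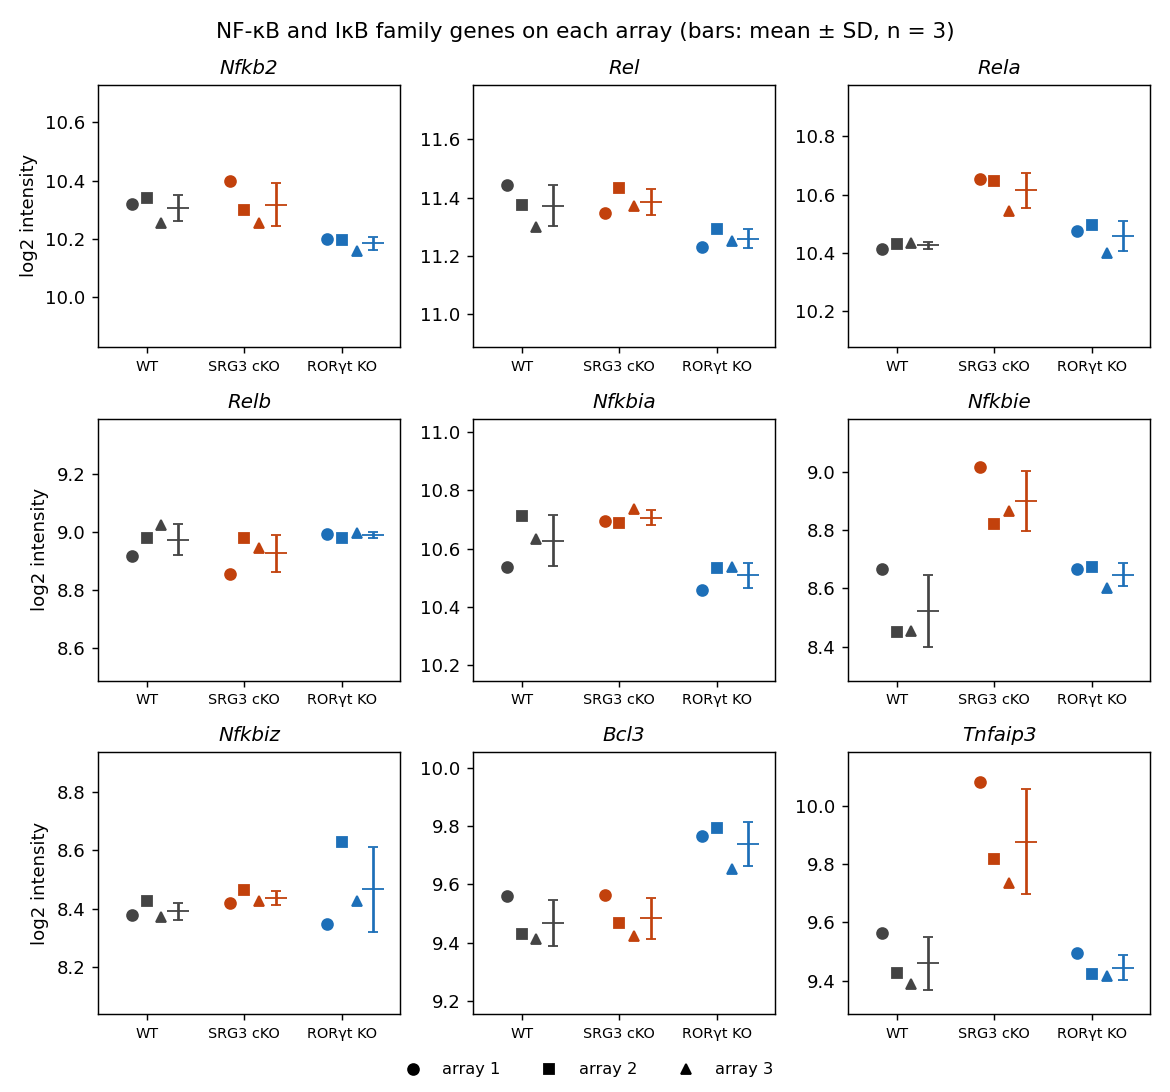
Log2 intensity (y axis) of the 9 measured family members on each array, by genotype (x axis), with circles, squares and triangles for arrays 1, 2 and 3 and bars for the mean ± SD (n = 3). Every panel spans the same range, 0.9 on the log2 scale. Tnfaip3, Nfkbie and Rela stand higher in SRG3 cKO arrays than in WT, and Bcl3 in RORγt KO arrays.

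The second question was how the family stands without RORγt. Bcl3, for a nuclear IκB protein, was the member farthest from WT: it was 1.21-fold higher, Nfkb2, Rel and Nfkbia had log2 changes of -0.12, -0.11 and -0.12, and Tnfaip3 was at -0.02. None of the 9 passed the threshold (0 called, limma, against 1.04% of all genes), while 4 had an unadjusted p under 0.05, against 12.7% of all genes.

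Bcl3 lay at 9.56, 9.43 and 9.41 in WT, at 9.56, 9.47 and 9.42 in SRG3 cKO and at 9.77, 9.79 and 9.65 in RORγt KO arrays. The RORγt KO arrays were above all others, and RORγt KO array 3 was the lowest of them. The change against WT was 0.27 (SE 0.06, 95% interval 0.14 to 0.40, limma adjusted p = 0.0747). Bcl3 passed without WT array 1 (0.32, limma adjusted p = 0.0448) and, with n = 2 per group, without the 3 arrays that stand apart (0.36, 0.0324). These fits leave out the highest WT array for Bcl3, and the second also its lowest RORγt KO array. Their passes are therefore not independent support.

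The subunits Rel and Nfkb2 and the inhibitor gene Nfkbia were the members that lay lower. Rel lay at 11.44, 11.38 and 11.30 in WT and at 11.23, 11.29 and 11.25 in RORγt KO arrays, a change of -0.11 (95% interval -0.22 to -0.01, limma adjusted p = 0.346). Nfkb2 was between 10.25 and 10.34 in WT and between 10.16 and 10.20 in RORγt KO arrays (-0.12, -0.22 to -0.02, limma adjusted p = 0.323). Nfkbia was at 10.54, 10.71 and 10.63 in WT and at 10.46, 10.53 and 10.54 in RORγt KO arrays (-0.12, -0.23 to -0.01, limma adjusted p = 0.36), and the nearest arrays of the 2 groups were equal to the printed digits. For these 3 members all RORγt KO arrays were below all WT arrays, as for 7.35% of all genes, and for Bcl3 alone all were above (6.90% of all genes). None of these differences passed the test.

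Tnfaip3 lay at 9.49, 9.42 and 9.41 in RORγt KO arrays, a change of -0.02 from WT (95% interval -0.20 to 0.17). Nfkbie was at 8.67, 8.67 and 8.60, a change of 0.12 (-0.03 to 0.28), with WT array 1 as high as these. Without WT array 1 the Nfkbie change was 0.20, and without the 3 arrays that stand apart it was 0.22 (limma adjusted p = 0.0658). Rela was at 0.03 (-0.06 to 0.13) and Relb at 0.02 (-0.08 to 0.12). Nfkbiz was at 0.08 (-0.07 to 0.22), and its RORγt KO arrays at 8.35, 8.63 and 8.42 had the widest spread of that group (SD 0.15). Without RORγt KO array 2 the Nfkbiz change was -0.01. In this comparison the members' median was 0.02, against -0.00 for all genes.

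Set against each other, the SRG3 cKO and RORγt KO arrays differed in Tnfaip3, and this is a test of whether the 2 genotypes' differences from WT are equal. Tnfaip3 was 1.35-fold higher in SRG3 cKO cells (log2 difference 0.43, SE 0.08, 95% interval 0.25 to 0.62, limma adjusted p = 0.042, n = 3 per group). It was the 1 member of 9 called, against 1.28% of all genes called and 0.595% called higher, and 7 had an unadjusted p under 0.05 (11.1% of all genes). With 1 array left out it passed without WT array 1 (adjusted p = 0.0487) or SRG3 cKO array 3 (0.0412) and not without any of the other 7, with a difference of 0.33 to 0.51. Over all 21 alternatives the adjusted p was 0.00841 to 0.156. The difference did not pass in the 6 arrays of these groups alone or without the 3 arrays that stand apart (0.32, limma adjusted p = 0.0959).

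Bcl3 was at -0.25 in SRG3 cKO against RORγt KO cells (95% interval -0.39 to -0.12, limma adjusted p = 0.0888), and its groups did not overlap. Without the 3 arrays that stand apart Bcl3 was at -0.34 (limma adjusted p = 0.066), but that fit drops its highest SRG3 cKO array and its lowest RORγt KO array. Nfkbie was at 0.25 (0.10 to 0.41, adjusted p = 0.173), Nfkbia at 0.20 (0.09 to 0.31, adjusted p = 0.125) and Rela at 0.16 (0.06 to 0.25, adjusted p = 0.178). Nfkb2 was at 0.13 (0.03 to 0.24, or 0.08 without the 3 arrays) and Rel at 0.12 (0.02 to 0.23). Together with Tnfaip3 these 6 members higher in SRG3 cKO cells had groups that did not overlap, against 7.79% of all genes, and Bcl3 alone was lower without overlap (6.82%). Relb at -0.06 (-0.16 to 0.04) and Nfkbiz at -0.03 (-0.17 to 0.11) overlapped. The members' median absolute log2 difference was 0.16, against 0.05 for all genes, and their median was 0.13 against -0.00. Each pair of the 3 comparisons shares a group of arrays, so their values are set side by side and not counted as independent.

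**Figure D2:**
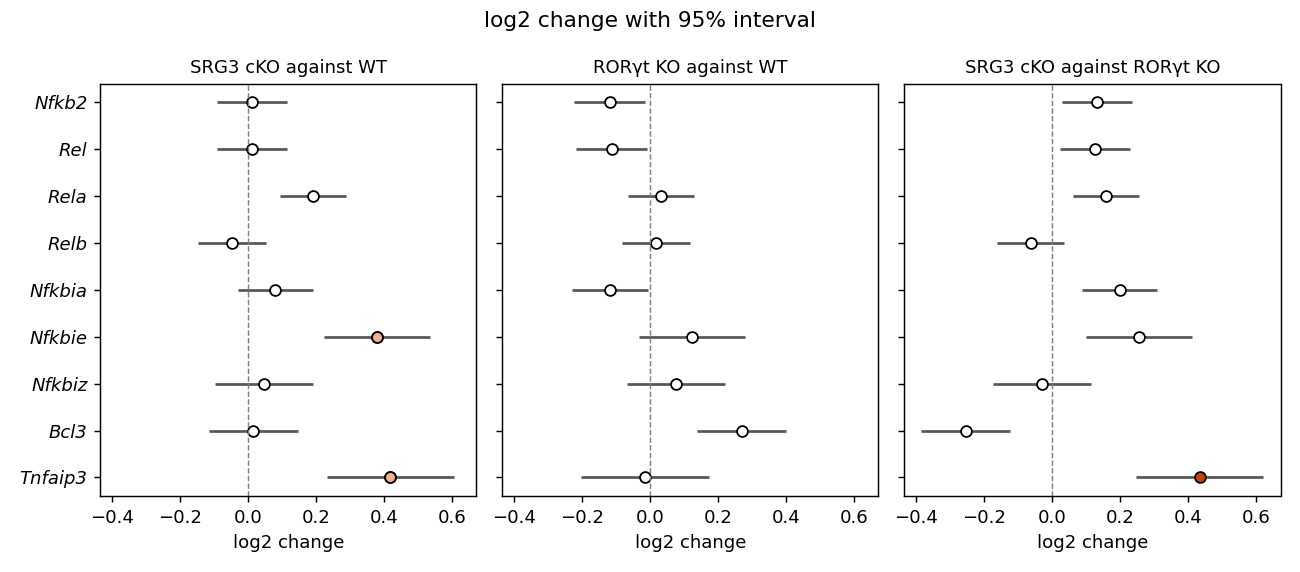
Log2 change (x axis) with its 95% interval for each family member (y axis) in the 3 comparisons. The filled dark point passed the limma threshold without the block. Pale points, marked only in SRG3 cKO against WT, passed with the replicate block in 9 arrays, but not with the block in the 6 arrays. Open points did not pass without the block. Among them Bcl3 passed with the 9-array block in the other 2 panels (limma adjusted p = 0.027 and 0.0313). Tnfaip3 is at 0.42 and 0.43 in the outer panels and at -0.02 in the middle one.

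Over the 9 arrays the genes whose log2 values followed Tnfaip3 most closely were Pot1a (Pearson r = 0.985), Afdn (0.98) and Oma1 (0.978). Each was higher in SRG3 cKO cells than in WT, by 0.20, 0.27 and 0.13, and within 0.02 of WT in RORγt KO cells, and none passed the test against WT (limma adjusted p = 0.0953, 0.207 and 0.287). The arrays share the group differences, so these values describe likeness of pattern only.

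**Figure D3:**
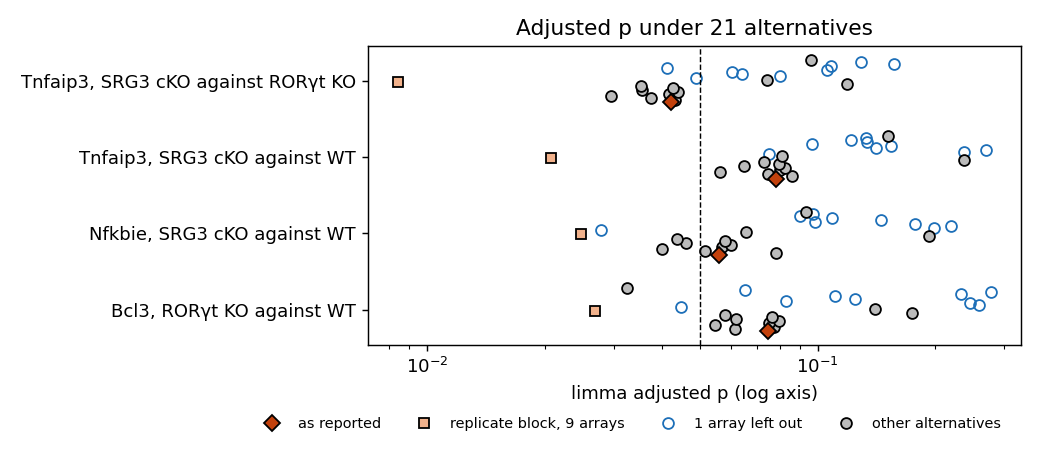
Limma adjusted p (log x axis) of 4 family results as reported (diamond), with the replicate block in 9 arrays (square), with 1 array left out (open circles) and under the other alternatives (grey circles). The dashed line is the threshold of 0.05. Tnfaip3 in the direct comparison passed in 11 of 21 alternatives, Nfkbie in 5, Bcl3 in 3 and Tnfaip3 against WT in 1.

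The partners of the members were taken from lists of pathway genes. Among all genes 0.523% were called in SRG3 cKO against WT (11.2% at an unadjusted limma p under 0.05), 1.04% in RORγt KO against WT (12.7%) and 1.28% in the direct comparison (11.1%), and list counts are set against these shares. Of 18 measured genes for other IκB proteins and A20 partners, none passed against WT in SRG3 cKO or RORγt KO cells (7 and 5 with an unadjusted limma p under 0.05, against 11.2% and 12.7% of all genes). Tnip1, which encodes the A20-binding protein ABIN1, was the 1 gene of that list to pass in the direct comparison, higher in SRG3 cKO than in RORγt KO cells like Tnfaip3 (0.27, SE 0.05, limma adjusted p = 0.0462). That call held in 1 of the 9 fits that left out an array. It was at 0.24 against WT in SRG3 cKO cells (adjusted p = 0.112) and at -0.03 in RORγt KO cells. With the block Tnip3, another gene for an A20-binding protein, rose in SRG3 cKO cells (0.58, limma adjusted p = 0.0481, or 0.133 without the block), and it was chosen after its value was seen. Tnip3 was as far from WT in RORγt KO cells (0.59, limma adjusted p = 0.0318 with the block and 0.0902 without), with a direct difference of -0.01. Of the other IκB genes, Nfkbib was at -0.01 in both comparisons with WT. Nfkbid was at 0.16 in SRG3 cKO and -0.16 in RORγt KO cells. The deubiquitinase gene Cyld was at 0.12 in both genotypes, and none of these genes passed.

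Of 29 measured genes for the IκB kinase and its adaptors, none passed in SRG3 cKO cells (8 at an unadjusted limma p under 0.05, against 11.2% of all genes). The kinase subunit genes Ikbkb and Ikbkg were at 0.07 and 0.16 there and at 0.01 and 0.11 in RORγt KO cells. In RORγt KO cells Tirap, for a Toll-like receptor adaptor, rose (0.30, limma adjusted p = 0.0331). Traf1, a TNF receptor adaptor and NF-κB target, was at 0.24 and 0.43 (adjusted p = 0.433 and 0.108), and Birc3 at -0.07 and 0.03. In the direct comparison Tirap was lower (-0.35, limma adjusted p = 0.0133) and Tab2, an adaptor of the kinase TAK1, higher (0.24, limma adjusted p = 0.0221) in SRG3 cKO cells. Of 13 genes of the route from CD28 to the IκB kinase, none passed in SRG3 cKO cells (4 at an unadjusted limma p under 0.05, against 11.2% of all genes), with Bcl10 at -0.03 and Malt1 at 0.13. Plcg1 rose in RORγt KO cells (0.23, limma adjusted p = 0.0354), where Bcl10 was at 0.01 and Malt1 at 0.24, and Vav1 was lower in SRG3 cKO than in RORγt KO cells (-0.20, adjusted p = 0.044). Of these calls Tirap in the direct comparison held in 7 of the 9 fits that left out an array, Tab2 in 4, Tirap against WT in 2, and Plcg1 and Vav1 in 1 each. Chuk is named without values.

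Among 21 measured receptors that signal to NF-κB, Il18r1 rose in SRG3 cKO cells (0.63, limma adjusted p = 0.00375). With the block Tnfrsf9, for the costimulatory receptor 4-1BB, rose there too (0.66, limma adjusted p = 0.0389, or 0.0776 without it). In RORγt KO cells Tnfrsf9 (0.80, limma adjusted p = 0.0273), and Il17ra (0.41, 0.0135) rose and Il1r1 fell (-1.40, 0.000143). In the direct comparison Il1r1 (1.37) and Il18r1 (0.77) were higher in SRG3 cKO cells and Il17ra lower (-0.38). The Il1r1 and Il18r1 calls held without each of the 9 arrays, Il17ra in 5 of 9 such fits against WT and 7 in the direct comparison, and Tnfrsf9 in 3. The median of the list was -0.02, -0.01 and -0.06 in the 3 comparisons.

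Of 37 measured NF-κB target genes 4 fell in SRG3 cKO cells, namely Ccl3 (-0.99), Il23r (-0.88), Tnfsf11 (-0.80) and Cd44 (-0.36), and none rose, with a list median of -0.02, against 0.523% of all genes called. With the block 4 fell and 3 rose, against 0.879% of all genes called: Il23r was lost (limma adjusted p = 0.0552) and Csf2 (-0.69), Lta (0.25), Irf4 (0.27) and Tnfrsf9 were gained, of which Csf2, Lta and Irf4 were chosen after their values were seen. Without 1 array Tnfsf11 passed in 9 of 9 fits, Ccl3 in 5, Il23r in 2 and Cd44 in 0. In RORγt KO cells Tnfrsf9 rose and 5 targets fell. They were Il23r (-2.63), the cytokine gene Tnf (-0.82, limma adjusted p = 0.00135), the lymphotoxin gene Lta (-0.47, 0.0379) and, chosen after their values were seen, the survival gene Bcl2l1 (-0.35, 0.010) and Egr2 (-0.29, 0.0436). Tnf and Il23r passed in 9 of 9 fits without 1 array and Lta in 0. In SRG3 cKO cells Tnf was at 0.04. The IL-2 receptor gene Il2ra was at -0.08 in SRG3 cKO and 0.07 in RORγt KO cells. In the direct comparison 6 targets were higher in SRG3 cKO cells, among them Il23r (1.75) and Tnf (0.86), and 3 were lower, among them Ccl3 (-1.23) and Tnfsf11 (-0.82).

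Nfkbiz did not pass in any comparison, and 11 genes of a list on its product IκBζ were read beside it. The list holds genes reported to depend on IκBζ, among them Il17a and Il17f, and also Rora, which encodes a ROR factor that acts with IκBζ. In SRG3 cKO cells Il17a (-2.19), Il23r, Il17f (-0.84) and Il22 (-0.51) fell. Of these Il17a passed in 9 of 9 fits without 1 array, Il22 in 4, Il23r in 2 and Il17f in 1. Il22 had means of 3.20 in SRG3 cKO, 3.19 in RORγt KO and 3.70 in WT arrays. All lie below the 25th percentile of all values (6.12), where signal is weak. With the block Csf2 also fell and Il23r did not pass. In RORγt KO cells Il17a (-3.85), Il23r, Il17f (-1.97), Cxcl3 (-0.91) and Il22 (-0.51) fell. Rora rose at the edge of the threshold (0.36, limma adjusted p = 0.04999). Il22 and Rora were chosen here after their values were seen. Cxcl3 passed in 2 of 9 fits without 1 array, and its mean was 5.63 in RORγt KO arrays, also below that percentile, against 6.54 in WT. The medians of this list against WT were -0.14 and -0.51, with -0.01 and -0.00 for all genes. With 11 genes each median is the change of a single gene, Il6 in SRG3 cKO and Il22 in RORγt KO cells. Il6 was faint like Il22, with means of 4.24 in SRG3 cKO and 4.38 in WT arrays. Both medians therefore rest on genes with weak signal. In RORγt KO cells the median was -0.036 when each gene was read from its lowest-mean probe set, so it depends on the choice of probe set. In the direct comparison 4 of the 11, namely Il17a, Il17f, Il23r and Cxcl3, were higher in SRG3 cKO than in RORγt KO cells. Il17a, Il17f and Il22 mark Th17 cells, and bulk RNA cannot tell fewer cells of a type from less RNA per cell.

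Without the 3 arrays that stand apart (2 per group), 0 of the 8 named pathway calls in SRG3 cKO against WT passed, 8 of the 11 in RORγt KO against WT, all but Plcg1, Lta and Cxcl3, and 3 of the 14 in the direct comparison, namely Il1r1, Il23r and Tnf (limma). These counts cover the genes named by the rule, without Smarcc1. The 8 kept in RORγt KO against WT are not independent support, because that fit drops the arrays of these groups nearest each other.

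The 10 measured T cell identity genes had a mean log2 level of 10.62 to 10.73 in WT arrays. It was 10.76 to 10.87 in SRG3 cKO arrays, without overlap, and 10.70 to 10.78 in RORγt KO arrays. None of these genes passed in any comparison. Markers of other cells were read beside the members, but the γδ T cell genes chosen had no values. The mean log2 level of 6 genes of CD8 T cells and NK cells was 6.98 to 7.03 in WT, 6.94 to 6.97 in SRG3 cKO and 7.11 to 7.18 in RORγt KO arrays. Of them Klrd1 rose in RORγt KO cells (0.91, limma adjusted p = 0.0202), and the other 5 did not pass, with changes from -0.08 (Cd8a) to 0.05 (Klrb1c), so the higher mean comes from Klrd1. Klrd1 was faint, with means of 5.96 in WT and 5.76 in SRG3 cKO arrays, below the 25th percentile of all values (6.12). Its mean was 6.87 in RORγt KO arrays. The mean of 8 genes of B cells and MHC class II was 7.67 to 7.89, 7.77 to 7.81 and 7.84 to 7.98 in the 3 groups, and that of 11 myeloid genes 6.80 to 6.84, 6.80 to 6.85 and 6.85 to 6.87. The part of such cells, or of the share of T cells, in the Bcl3, Tnfaip3 and Rela differences was not tested.

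**Figure D4:**
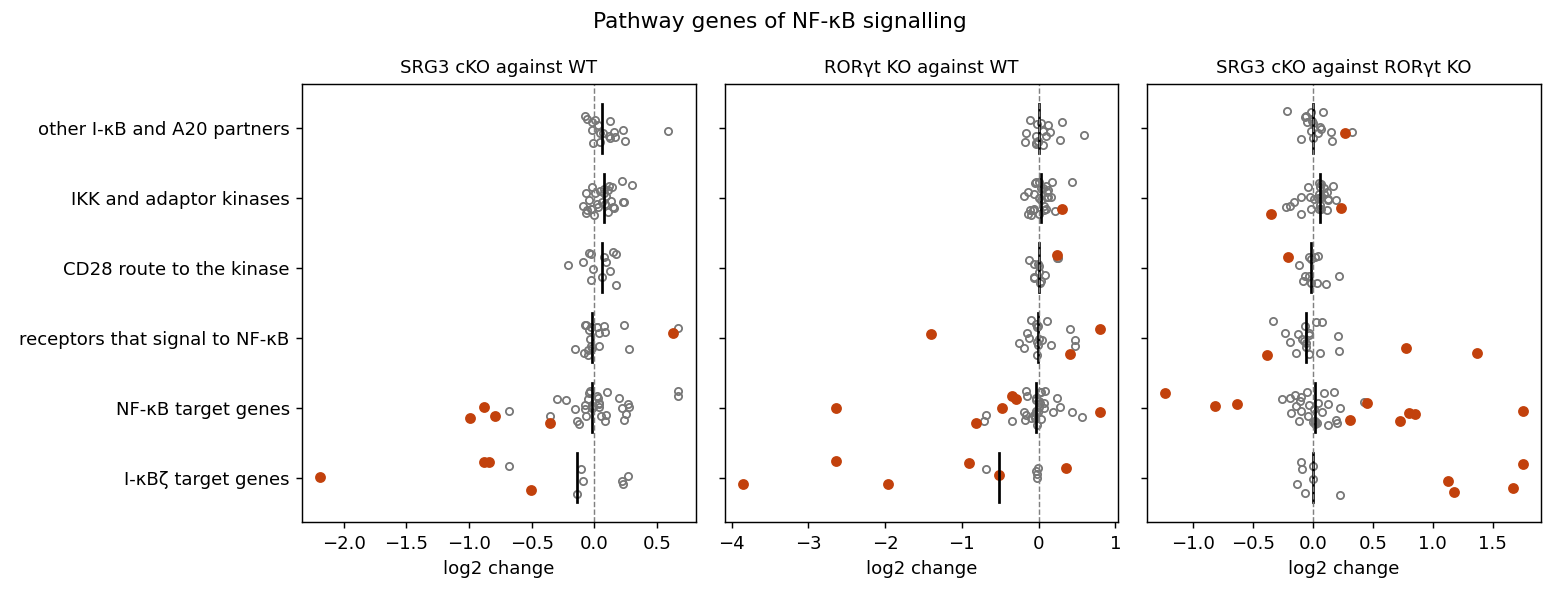
Log2 change (x axis, with its own range in each panel) of the measured genes of 6 pathway lists (y axis) in the 3 comparisons, with filled points for genes past the limma threshold, open points for others and black lines for list medians. The lists nearest the members, A20 partners and the IκB kinase, hold 1 filled point in the first 2 panels together.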

How the data were processed

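Values were log2 probe set intensities of 9 arrays, deposited by the authors as a series matrix; background correction, summarization and normalization are not given in the sources used here. Medians per array lay between 7.12 and 7.14, with the 25th percentile of all values at 6.12. Of 41345 probe sets, 23521 carried 1 gene symbol, updated by gene ID (23328 matched, RefSeq GRCm38.p6), and the highest-mean probe set per gene gave 22180 genes. Per the labels, IL-6 was at 30 µg/ml, reported as written. No sample column was left unused (0).

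The genotypes were compared in 1 linear model of the 9 arrays (limma 3.58.1, R 4.3.3), with p-values adjusted over all genes by Benjamini-Hochberg with a threshold of 0.05. The fit without the block was tested on simulated data whose noise was independent between arrays, which does not cover the block or a shared effect of array number. "Rose", "fell" and "called" mean past that threshold. Deviations of same-numbered arrays from their group means correlated at 0.287, 0.186 and 0.116 for SRG3 cKO and WT, which were taken as paired. For RORγt KO and WT (0.215, -0.00527 and 0.186) and the direct comparison (0.223, -0.00544 and 0.137) they were not. The members and lists were chosen with earlier results of these data known. Named are all members, up to 4 called genes per pathway list and comparison, a set of pathway genes whatever their result, and the 3 genes most like a called member. Promoters came from RefSeq, searched over 250 bases on both strands. Alternatives are given in the closing section. Leaving out the 3 arrays that stand apart was added after seeing the data. One pathway gene is not reported here.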

Additional observations from a re-analysis of the deposited data

How the results depend on the processing

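Of 21 alternatives 9 left out 1 array. In SRG3 cKO against WT, 13 genes were called in the 6 arrays of the 2 groups, 195 with the replicate block, 32 with that block in the 6 arrays, 1 without the 3 arrays that stand apart, and 18 to 87 without 1 array, against 116. Family members called were 1 (Nfkbie) among genes above the 25th percentile, with a variance trend and with array weights, 2 with the block, 0 with the block in the 6 arrays, and 0 to 1 without 1 array. In RORγt KO against WT the genes called were 43, 374, 63, 464 and 45 to 322 under the same settings, against 230. The block, although array 2 of these groups did not correlate, called 1 member (Bcl3, limma adjusted p = 0.027), as did the fit without the 3 arrays, and 0 to 1 were called without 1 array. In the direct comparison the genes called were 142 in the 6 arrays, 131 with the block in the 6 arrays, 39 without the 3 arrays and 138 to 261 without 1 array, against 283. Members called were 2 with array weights and with the block (Tnfaip3 and Bcl3), 0 in the 6 arrays with and without the block and without the 3 arrays, and 0 to 1 without 1 array. The median of the IκBζ target list in RORγt KO cells was -0.036 with the lowest-mean probe set, against -0.51.

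Values near 0 changed sign, all uncalled. In SRG3 cKO against WT Nfkb2 was at -0.0025 with array weights and -0.022 without the 3 arrays, and Nfkbib at 0.036. Without 1 array Nfkb2 ranged from -0.029 to 0.044, Rel from -0.026 to 0.046, Bcl3 from -0.024 to 0.061, Nfkbib from -0.040 to 0.038, Bcl10 from -0.075 to 0.038 and Tnf from -0.0016 to 0.070. In RORγt KO against WT, without the 3 arrays, Relb was at -0.015, Tnfaip3 at 0.051 and Nfkbib at 0.053. Ikbkb was at -0.00094 and Bcl10 at -0.0014 with median centring, and with array weights Nfkbib was at 0.0036 and Bcl10 at -0.011. Without 1 array Relb ranged from -0.011 to 0.042, Tnfaip3 from -0.051 to 0.036, Nfkbiz from -0.0051 to 0.136, Nfkbib from -0.039 to 0.039, Ikbkb from -0.034 to 0.033 and Bcl10 from -0.042 to 0.071. In the direct comparison Cyld was at -0.017 with quantile normalization, -0.0095 with array weights and -0.012 without the 3 arrays, and Nfkbib at 0.0076 with median centring. Without 1 array Cyld ranged from -0.023 to 0.017, Nfkbib from -0.015 to 0.016, Nfkbiz from -0.090 to 0.051 and Bcl10 from -0.076 to 0.0023. The cause of these moves was not tested. The number of arrays limits the precision.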

Other observations

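Relb had the same deposited value, 8.979614, on array 2 of each genotype, 3 arrays in all, and Nfkbiz the same value, 8.424521, on WT array 2 and array 3 of both other genotypes. At least 3 arrays shared 1 value for 7264 of 22180 genes (32.8%). The other 7 members had 9 different values each.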
